A study of Capra hircus with 9 samples.

Results

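Pyruvate entry and the citric acid cycle were described by 9 genes of 23499 in the deposited table of goat mammary gland expression. They were taken by name, as the rows whose symbol is PC, PDHA1, PDHB, CS, IDH2, IDH3A, OGDH, FH or MDH2, with earlier results of these data known. Pyruvate reaches the mitochondrial matrix through a carrier and is then either carboxylated to oxaloacetate by pyruvate carboxylase or oxidised to acetyl-CoA by the pyruvate dehydrogenase complex. The cycle condenses acetyl-CoA with oxaloacetate to citrate and returns to oxaloacetate while reducing NAD and ubiquinone. In the lactating gland it yields ATP, and citrate and its products leave the mitochondria to serve milk synthesis. In ruminants mammary fatty acids are built mainly from acetate, and cytosolic isocitrate dehydrogenase is known as a source of NADPH for them.

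The libraries came from mammary gland tissue of 9 healthy goats of the Laoshan dairy breed of China, kept on 1 farm, at parity 3 and at an average age of 4 years. Late lactation (LL) was sampled at 240 days postpartum, the dry period (DP) at 300 days postpartum and late gestation (LG) at 140 days after mating, with 3 goats and 3 libraries per stage. The labels name no treatment, so the stages differ by the time of sampling. Whole tissue was used, so that a lower value from fewer cells of a type and one from less RNA per cell cannot be told apart.

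The values were read as FPKM, fragments per kilobase of transcript corrected for the mapped total, a unit that the table does not name. FPKM carry no number of reads, so no counting error is given. The summed FPKM ranged from 940676 to 1157015 among LL libraries, from 601250.2 to 616268 among DP libraries and from 733277 to 768157 among LG libraries. Because milk protein genes take a large share of an LL library, values were also divided by a scaling factor per library, the median ratio over 15905 genes, and are then called scaled FPKM. Stages were compared on log2(scaled FPKM + 1) with limma over 14701 genes, and adjusted p-values are Benjamini-Hochberg values over all of these. Calls of higher or lower needed both a log2 fold change sized 1 or more and an adjusted p under 0.05, and fold changes on this scale understate those of genes with low values. All 9 genes passed the filter, which asked for 0.5 FPKM or more in 3 or more libraries.

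On the scaled values most of the 9 genes stood below LL in DP, and in LG they stood above DP and near LL. For DP vs LL, meaning DP against LL, 7 of the 9 had a log2 fold change below 0 and 2 above, with a median of -0.69 against 0.0041 for all genes tested. Between LG and DP, 8 were above 0 and 1 below, with a median of 0.77 against 0.0083 for all genes. Between LG and LL, 5 were above 0 and 4 below, with a median of 1.4e-05 against 0.019 for all genes. The direction in DP vs LL depended on the scaling, since with FPKM as deposited all 9 genes were above 0 with a median of 0.58, while the median of all genes was then 1.09. Measured from that shift, the median of the 9 genes was -0.51 without scaling, -0.44 with quantile normalization and -0.70 when scaled by the sum of all but the 100 most abundant genes, next to -0.70 with the median ratio. The same difference in LG vs DP was 0.74, 0.53, 0.74 and 0.76. In LG vs LL it was 0.21, 0.19, 0.040 and -0.019.

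Calls were few at the fold threshold. In DP vs LL, 0 of the 9 genes were called higher and 1 was called lower, CS, where 13.8% of all genes tested were called higher, 8.79% lower and 22.6% in either direction. By adjusted p alone 1 gene was higher and 7 were lower, where 28.2% of all genes were higher and 28.6% lower. That split turned with the scaling, to 7 higher and 0 lower without scaling (83% and 3.74% of all genes), 1 and 3 with quantile normalization (26.6% and 25.3%) and 2 and 2 with the sum (44.6% and 11.6%). In LG vs LL limma called 0 of the 9 genes, with 2 at an unadjusted p under 0.05, where 17.3% of all genes were called, 10.7% higher and 6.61% lower. This too depended on the scaling, since with FPKM as deposited 6 were called higher, PC (1.37), PDHA1 (1.05), PDHB (1.45), IDH2 (1.26), FH (1.33) and MDH2 (1.14). The median of the 9 genes was then 1.14, where that of all genes was 0.929. Without scaling 45.6% of all genes were called higher in LG vs LL and 54.3% in DP vs LL, the shares beside which the counts without scaling given below for gene lists stand. By adjusted p alone 1 was higher and 1 lower in that comparison, against 25.6% and 24.6% of all genes. In LG vs DP, 2 were called higher, PC and PDHB, and 1 lower, IDH3A, where 6.37% of all genes were called higher, 6.88% lower and 13.3% in either direction. By adjusted p alone 6 were higher and 1 lower, against 18.4% and 16.4% of all genes. LL libraries serve in 2 of the comparisons, as do those of DP and LG, so the 3 sets of calls are not separate observations. The shares of all genes given here for scaled values also stand beside the counts on scaled values given below for gene lists. No share of all genes is given at an unadjusted p under 0.05, and it cannot be smaller than the share by adjusted p.

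**Figure D1:**
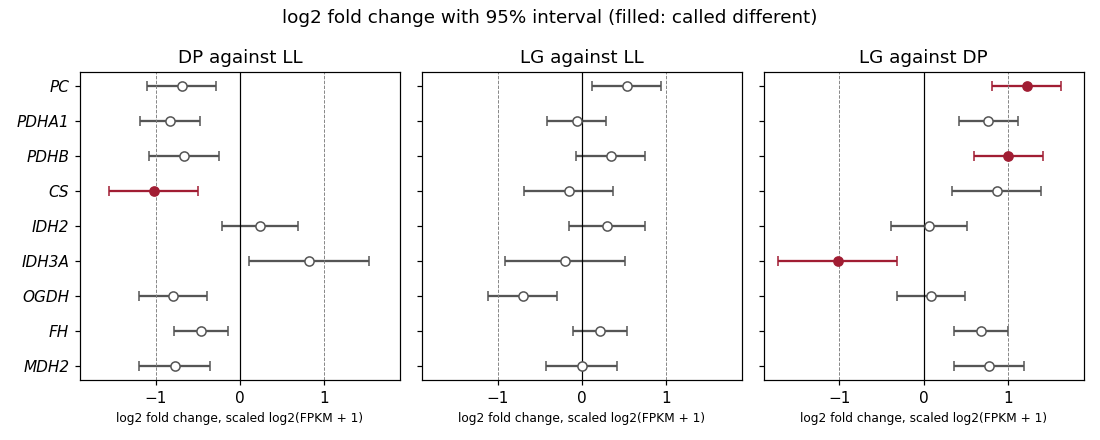
The log2 fold changes of the 9 genes with their 95% intervals on the scaled log2(FPKM + 1) scale in DP vs LL, LG vs LL and LG vs DP (limma, 3 libraries per stage, dashed lines at a size of 1, filled points called). The 7 genes left of 0 in DP vs LL lie right of 0 when values are not scaled, and CS carries a value shared with its neighbour PAN2.

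The level of 1 gene may not be its own. The FPKM of CS exceeded that of PAN2, a deadenylase subunit gene near it on chromosome 5, by 0.02 in each of the 9 libraries, and that of CNPY2, which lies between them, by 2.98 to 3.48. A fixed step or a straight line between the values of neighbours was found for 1392 of 15945 genes searched, each with its 8 next genes on either side. The other 8 genes showed no such link. Which of the linked genes supplied the reads cannot be told apart, and without all linked genes limma called 0 of the remaining 8 genes in DP vs LL, with 6 at an adjusted p under 0.05, and 3 in LG vs DP.

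PC, which adds carbon dioxide to pyruvate to give oxaloacetate, lies on chromosome 29 from 45249869 to 45351468, in coordinates identical to the ARS1.2 assembly. Its mean FPKM was the lowest of the 9 genes in each stage, at 1.55 ± 0.468 (SD, n = 3) in LL, 1.95 ± 0.331 in DP and 5.58 ± 1.11 in LG, though IDH3A lay below it in LG1 and LG2. In scaled FPKM the values of PC were 2.13, 3.60 and 2.66 for LL, 1.51, 1.30 and 1.15 for DP, and 5.21, 5.03 and 3.27 for LG. All 3 DP libraries lay below all others, while LG3 lay below the highest LL library. PC was called higher in LG than in DP by a log2 fold change of 1.23 (SE 0.182, limma adjusted p = 0.000953), and in the alternatives run the fold change was 1.12 to 1.67 and the call held in 19 of 19. DP vs LL gave a log2 fold change of -0.69 for PC (limma adjusted p = 0.00977), or 0.22 without scaling, and in LG vs LL it was 0.53 (limma adjusted p = 0.0339), both under the fold threshold. The opposite-strand gene LRFN4 lies within PC at 1.3 to 3.99 FPKM, close to the level of PC itself, and since the strand of the reads is not stated, reads of the pair cannot be told apart.

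PDHA1 and PDHB encode the alpha and beta subunits of the E1 enzyme, which decarboxylates pyruvate in the dehydrogenase complex. PDHA1 lies on an unplaced scaffold in this assembly, so that some of its reads may map elsewhere, and PDHB on chromosome 22 from 42857617 to 42863284. Scaled FPKM of PDHA1 were 20.8, 25.0 and 19.5 for LL, 10.1, 11.9 and 13.3 for DP, and 19.5, 19.1 and 23.8 for LG. Scaled FPKM of PDHB were 18.4, 19.5 and 14.2 for LL, 12.0, 9.22 and 10.4 for DP, and 25.9, 17.7 and 23.7 for LG. For both subunits every DP library lay below every LL and LG library, and LL and LG overlapped. PDHB was called higher in LG than in DP at a log2 fold change of 1.01 (SE 0.184, limma adjusted p = 0.0027). That call sits on the threshold, since the value was 0.80 without scaling, 0.86 with quantile normalization and 0.84 when scaled by the sum, and 0.93, 0.90 and 0.96 without DP2, LG1 or LG3, with adjusted p from 0.0022 to 0.0127 over all alternatives. PDHA1 differed by 0.77 in the same comparison (SE 0.158, limma adjusted p = 0.00491).

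In DP vs LL the log2 fold change was -0.83 for PDHA1 (limma adjusted p = 0.00185) and -0.66 for PDHB (limma adjusted p = 0.0125), and without scaling these were 0.49 and 0.65. With quantile normalization they were -0.54 and -0.42 (limma adjusted p = 0.00822 and 0.0607). When scaled by the sum they were -0.41 and -0.24 (limma adjusted p = 0.0395 and 0.243). On the scaled values LG vs LL gave -0.06 for PDHA1, with a 95% interval of -0.42 to 0.29. For PDHB it gave 0.35, with an interval of -0.07 to 0.76. The ratio of PDHA1 to PDHB within a library, on which no scaling bears, was 1.26 ± 0.122 in LL, 1.14 ± 0.254 in DP and 0.946 ± 0.171 in LG. LG lay below LL without overlap, and DP overlapped both. Ratios were not tested.

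CS encodes citrate synthase, which opens the cycle by joining acetyl-CoA to oxaloacetate, and the row lies on chromosome 5 from 56418352 to 56441273. Scaled FPKM of the row were 61.5, 58.9 and 34.4 for LL, 21.0, 27.2 and 24.4 for DP, and 52.4, 46.2 and 37.1 for LG. DP lay below both other stages in every library, and LL3 stood well under the other LL libraries. DP vs LL gave a log2 fold change of -1.03 (SE 0.237, limma adjusted p = 0.00517), called lower. The call was lost with quantile normalization (-0.50), with the sum (-0.59), and without LL1 (-0.90), LL2 (-0.93) or DP1 (-0.93), and the sign turned without scaling (0.35), with limma adjusted p from 0.00084 to 0.122 over the alternatives. In LG vs DP the value was 0.87 (limma adjusted p = 0.0189), under the fold threshold. All of this holds for the value shared with PAN2, while CNPY2 was not called in DP vs LL (-0.98).

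Isocitrate is oxidised in the matrix by an NADP enzyme, encoded by IDH2, and by an NAD enzyme, whose catalytic alpha subunit is encoded by IDH3A. Both genes lie on chromosome 21, IDH2 from 20773913 to 20791560 and IDH3A from 30141652 to 30158224. They departed from the lower DP values of the other 7 genes. Scaled FPKM of IDH3A were 4.92, 5.03 and 6.26 for LL, 6.52, 11.5 and 14.1 for DP, and 3.35, 3.40 and 7.94 for LG. DP lay above LL in every library, by a narrow margin in DP1, and LG3 lay above DP1, so that DP and LG overlapped. IDH3A was called lower in LG than in DP at a log2 fold change of -1.02 (SE 0.316, limma adjusted p = 0.0322).

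The IDH3A call did not hold in 6 of 19 alternatives. The limma adjusted p was 0.0576 with no filter and 0.0739 with DP and LG alone in the fit, and the log2 fold change was -0.93 without DP2, -0.80 without DP3, -0.84 without LG1 and -0.85 without LG2, with adjusted p from 0.00669 to 0.108 over all alternatives and the sign kept in each. DP vs LL gave 0.82 (SE 0.316, limma adjusted p = 0.049), under the fold threshold. It passed that threshold without scaling (2.01), when scaled by the sum (1.21) and without DP1 (1.11), with limma adjusted p from 0.00025 to 0.144 over the alternatives. ACSBG1, on the opposite strand, overlaps IDH3A and had 0.23, 1.27 and 1.75 FPKM in DP and 0.16 to 0.43 in LL and LG. IDH3A itself had 9.96, 16.6 and 20.3 FPKM in those DP libraries, so that the pair were both lowest in DP1, and reads of the pair cannot be told apart.

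Ratios within a library set IDH3A against the genes of the other subunits of its enzyme. IDH3A stood at 0.240 ± 0.0629 of the FPKM of IDH3B in LL, 0.6 ± 0.236 in DP and 0.184 ± 0.0975 in LG. Against IDH3G, the other regulatory subunit gene, the ratio was 0.272 ± 0.0491, 0.953 ± 0.269 and 0.249 ± 0.144. In both ratios all 3 DP libraries lay above all LL and LG libraries, whereas the stages overlapped in the ratio of IDH3A to IDH2 (1.12 ± 0.279, 1.99 ± 1.13 and 0.839 ± 0.598). Among the 9 genes, the share of IDH3A in the summed FPKM was 3.23% ± 1.04 for LL, 9.87% ± 2.90 for DP and 2.85% ± 1.43 for LG, again with DP apart from both. These quantities do not change with any scaling factor. The summed FPKM do include the row of CS, whose value is shared with PAN2, at 21.0% to 32.8% of the sum per library.

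**Figure D2:**
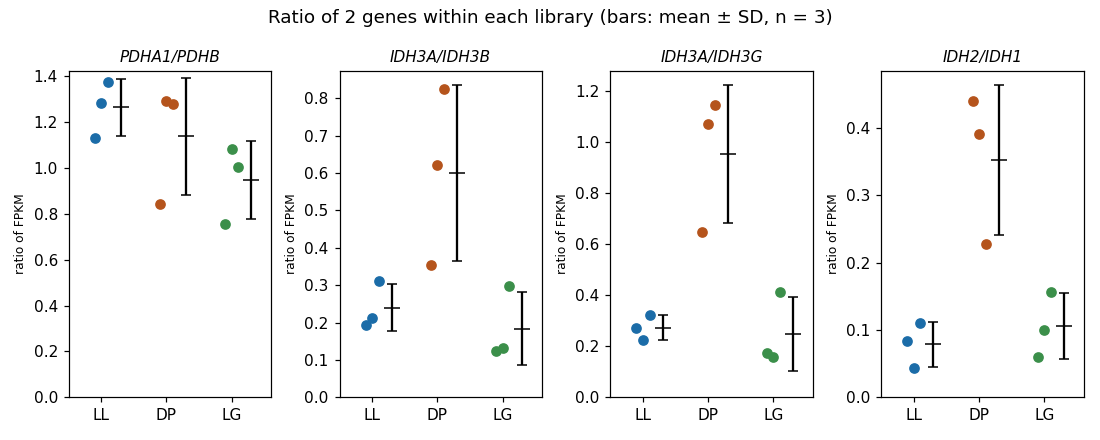
Ratio of the FPKM of 2 genes within each library for PDHA1 to PDHB, IDH3A to IDH3B, IDH3A to IDH3G and IDH2 to IDH1, with points for the 3 libraries of LL, DP and LG and bars for the mean and SD. DP libraries lie above the others for IDH3A to IDH3B (means 0.240, 0.6 and 0.184), for IDH3A to IDH3G and for IDH2 to IDH1.

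IDH2 had scaled FPKM of 5.69, 4.63 and 4.41 for LL, 8.27, 5.34 and 4.67 for DP, and 6.07, 7.73 and 5.20 for LG. The 3 stages overlapped, and DP1 was the highest of the 9 libraries. The log2 fold change was 0.24 in DP vs LL (95% interval -0.21 to 0.69), 0.30 in LG vs LL (-0.15 to 0.75) and 0.07 in LG vs DP (-0.38 to 0.52). Without scaling these were 1.40 (called higher, limma adjusted p = 0.000122), 1.26 (called higher) and -0.14. IDH2 stood at 0.079 ± 0.033 of the FPKM of IDH1, the cytosolic NADP enzyme, in LL, 0.352 ± 0.111 in DP and 0.106 ± 0.0484 in LG, with every DP library above all others. Scaled FPKM of IDH1 itself were 71.2 ± 32.7, 17.7 ± 3.55 and 70.2 ± 34.2 over the stages in that order.

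OGDH encodes the E1 subunit of the 2-oxoglutarate dehydrogenase complex and lies on chromosome 4 from 43346635 to 43414190. Among the 9 genes it was the 1 member in which LG lay apart from LL on the scaled values. In FPKM as deposited LG lay apart from LL, and above it, in all 9 genes. The share of all genes without overlap is not given here. Scaled FPKM of OGDH were 17.4, 17.8 and 13.5 for LL, 8.15, 7.42 and 11.4 for DP, and 8.31, 9.59 and 10.7 for LG. Every LL library lay above every DP and LG library, and DP and LG overlapped. The log2 fold change of OGDH was -0.79 in DP vs LL (SE 0.181, limma adjusted p = 0.00482) and -0.70 in LG vs LL (limma adjusted p = 0.00988), with 0.51 and 0.38 without scaling. When scaled by the sum these were -0.38 (limma adjusted p = 0.0659) and -0.45 (limma adjusted p = 0.0392). With the median ratio LG vs DP gave 0.09 for OGDH, with a 95% interval of -0.31 to 0.50 (limma adjusted p = 0.73). Its share of the summed FPKM of the 9 genes was 9.38% ± 0.126 in LL, 8.40% ± 1.68 in DP and 5.61% ± 0.745 in LG, with LG below all LL and DP libraries. That sum includes the row of CS with its shared value.

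FH encodes fumarase, which hydrates fumarate to malate, and MDH2 the mitochondrial malate dehydrogenase that closes the cycle. FH lies on chromosome 16 from 33797989 to 33822750, and MDH2 on chromosome 25 from 35174573 to 35186838. Scaled FPKM of FH were 20.6, 22.7 and 18.6 for LL, 14.5, 14.4 and 15.1 for DP, and 25.6, 20.4 and 26.7 for LG. Scaled FPKM of MDH2 were 36.0, 33.5 and 27.9 for LL, 14.9, 22.4 and 18.9 for DP, and 28.6, 30.8 and 38.3 for LG. For both genes all DP libraries were the lowest, and LL and LG overlapped. FH differed by -0.46 in DP vs LL (SE 0.144, limma adjusted p = 0.0213) and by 0.68 in LG vs DP (limma adjusted p = 0.00589), and MDH2 by -0.78 (SE 0.187, limma adjusted p = 0.00642) and 0.78 (limma adjusted p = 0.0108), all under the fold threshold. In DP vs LL FH was 0.87 without scaling, -0.14 with quantile normalization (limma adjusted p = 0.339) and -0.034 with the sum (limma adjusted p = 0.849), and MDH2 0.58, -0.34 (limma adjusted p = 0.135) and -0.34 (limma adjusted p = 0.139). In LG vs LL the log2 fold change of FH was 0.22 and that of MDH2 1.4e-05, with a 95% interval of -0.42 to 0.42. STYXL1, on the opposite strand, overlaps MDH2 at 0 to 2.4 FPKM, against 16.9 to 50.3 FPKM for MDH2.

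**Figure D3:**
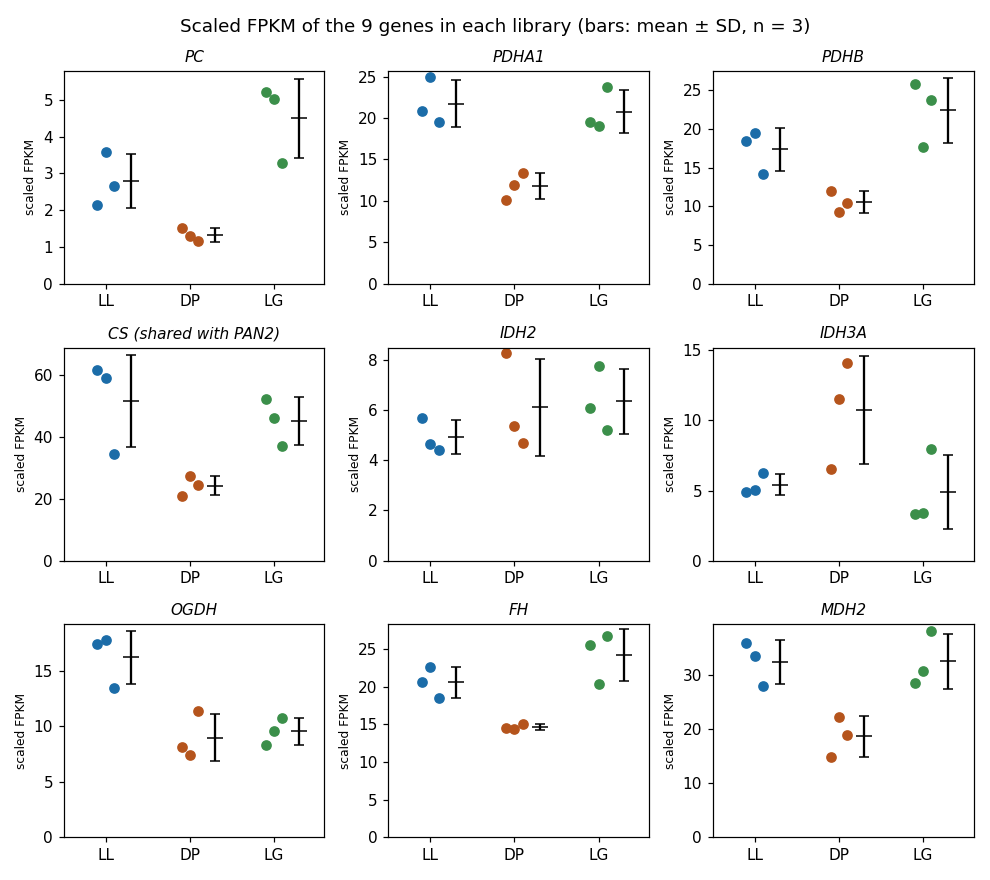
Scaled FPKM of the 9 genes in each library, with points for the 3 libraries of LL, DP and LG and bars for the mean and SD. For PC, PDHA1, PDHB, CS, FH and MDH2 the DP libraries lie lowest, whereas IDH3A lies highest in DP on average and OGDH is highest in LL, and without scaling the DP vs LL order turns for all but IDH2 and IDH3A, as does LG vs LL for OGDH.

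Ranked by FPKM, which are per length, the row of CS held rank 1 and MDH2 rank 2 in each stage, at 28.0 ± 6.30 and 17.8 ± 0.822 for LL, 35.4 ± 3.60 and 27.4 ± 4.77 for DP, and 56.1 ± 7.06 and 40.8 ± 8.36 for LG. In LL the order went on with PDHA1 (12.0 ± 1.74), FH (11.3 ± 1.13), PDHB (9.50 ± 1.13) and OGDH (8.88 ± 0.860), neighbours whose SDs overlapped. IDH3A (3.01 ± 0.698) and IDH2 (2.69 ± 0.136) followed far below, with the mean of IDH2 within the SD of IDH3A, and PC came last. FH held rank 3 in DP at 21.5 ± 0.727, and PDHA1 (17.2 ± 1.85), IDH3A (15.6 ± 5.25), PDHB (15.5 ± 2.57) and OGDH (13.2 ± 2.94) were not separated by their SDs, with IDH2 at 9.02 ± 3.17. In LG FH (30.3 ± 5.01), PDHB (28.0 ± 5.34) and PDHA1 (26.0 ± 4.51) overlapped, and OGDH (12.0 ± 2.08), IDH2 (7.88 ± 1.45) and IDH3A (6.21 ± 3.66) came below them. IDH3A held rank 7 in LL, 5 in DP and 8 in LG.

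For the other 11 genes of the cycle itself, the median difference (log2) between DP and LL was -0.69, or 0.67 without scaling, that between LG and LL was 0.09 and that between LG and DP was 0.67. DP vs LL gave 3 of 11 called lower and 0 higher by limma, where 8.79% and 13.8% of all genes were. By adjusted p alone 8 were lower and 0 higher, against 28.6% and 28.2% of all genes. The 3 called lower were SUCLG2, a subunit of succinyl-CoA ligase (-1.06), SDHA, the flavoprotein of succinate dehydrogenase (-1.37), and SDHD, one of its membrane anchors (-1.05). None of these 3 calls held under the other scalings, and without scaling the values were 0.31, -0.0046 and 0.33. Without scaling 3 other genes were called higher and 0 lower, IDH3B (1.01), SUCLA2 (1.43) and SDHC (1.01). In LG vs DP 3 were called higher and 0 lower, where 6.37% and 6.88% of all genes were. The 3 were SUCLG1 (1.12), the iron-sulfur subunit gene SDHB (1.05) and SDHD (1.68), and of these SDHD alone was called under each scaling. Limma called 0 of the 11 in LG vs LL, with 5 at an unadjusted p under 0.05, but 8 higher without scaling. Even by adjusted p, 25.6% of all genes were higher and 24.6% lower in LG vs LL on the scaled values. SDHD was the most abundant of the list, and its value is linked to that of C15H11orf57 with a step of 2.76 to 3.26 FPKM. The scaled FPKM of SDHA were 60.2, 48.5 and 38.6 for LL, 18.7, 20.6 and 15.3 for DP, and 32.0, 19.8 and 22.2 for LG, so that LL lay apart on this scale and, as for OGDH, DP and LG overlapped.

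The genes of the carrier that brings pyruvate into the matrix had larger fold changes in DP vs LL than those of the enzymes that use it. MPC1 and MPC2 encode its subunits. Scaled FPKM of MPC1 were 207, 181 and 142 for LL, 21.0, 18.6 and 17.5 for DP, and 35.0, 53.1 and 55.6 for LG. Scaled FPKM of MPC2 were 125, 148 and 61.4 for LL, 6.23, 6.85 and 6.67 for DP, and 12.4, 9.52 and 9.47 for LG. Neither gene had overlapping stages, with LL highest and DP lowest. MPC1 was called lower in DP than in LL at -3.13 (limma adjusted p = 5.59e-06) and in LG than in LL at -1.87 (limma adjusted p = 0.000123), and called higher in LG than in DP at 1.26 (limma adjusted p = 0.00187). MPC2 was called lower at -3.80 and -3.21 against LL, while LG vs DP gave 0.59 (limma adjusted p = 0.137). Without scaling MPC1 stood at -1.75, -0.70 and 1.05 in the 3 comparisons and MPC2 at -2.46 and -2.07 against LL, and of these calls that of MPC1 in LG vs LL was lost. The other complex genes of that list, DLAT, DLD and PDHX, were called in 0 of 3 comparisons by limma, with unadjusted p under 0.05 for PDHX in DP vs LL, DLAT in LG vs LL, and DLAT and DLD in LG vs DP, while without scaling 1 was called higher in DP vs LL and 2 in LG vs LL.

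Kinases switch the dehydrogenase complex off by phosphorylating the product of PDHA1, and phosphatases restore it. PDK4, the most abundant of the 6 such genes in the table, had scaled FPKM of 30.5, 112 and 95.4 for LL, 61.7, 57.1 and 34.9 for DP, and 14.3, 14.3 and 19.3 for LG. Every LG library lay below all others, and LL1 lay below all DP libraries. PDK4 was called lower in LG than in LL (-2.06, limma adjusted p = 0.00373) and than in DP (-1.59, limma adjusted p = 0.0189). PDK3 was called higher in DP and LG than in LL (1.42 and 1.24) at a low level, 0.19 ± 0.05, 2.33 ± 1.25 and 1.95 ± 1.03 scaled FPKM. Its LL libraries had 0.08, 0.09 and 0.15 FPKM, so it passed the filter of 0.5 FPKM through DP and LG alone. The phosphatase gene PDP2 was called lower in both (-1.03 and -1.02), calls that were lost without scaling (0.10 and -0.07) and when scaled by the sum (-0.67 and -0.79), the latter also with quantile normalization (-0.98). Without scaling PDK4 was not called in LG vs LL (-0.92). In number, 1 of 6 was called higher and 1 lower in DP vs LL, 1 and 2 in LG vs LL, and 0 and 1 in LG vs DP, where without scaling the first 2 became 4 higher and 0 lower each, and PDPR was not analysed here.

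A list of 12 genes held cytosolic counterparts, citrate cleavage, malic enzymes, aspartate aminotransferases and mitochondrial carriers, and not all of its enzymes are cytosolic. Of the 12 genes, 1 was called higher and 4 lower in DP vs LL (3 and 0 without scaling), 2 and 2 in LG vs LL (7 and 1), and 2 and 0 in LG vs DP (1 and 1). IDH1, the most abundant of them, was called lower in DP than in LL (-1.86) and higher in LG than in DP (1.81). ACO1, the cytosolic aconitase, was called in the same directions (-1.88 and 1.12), the latter lost without scaling (0.93) and with the sum (0.96). Without scaling the DP vs LL values of IDH1 (-0.49), ACO1 (-0.56), SLC25A1 (-0.25) and ME3 (-0.95) were not called. SLC25A1, which carries citrate out of the mitochondria, had scaled FPKM of 22.0, 37.3 and 28.1 for LL, 8.03, 8.61 and 10.2 for DP, and 14.7, 16.1 and 14.6 for LG, with no overlap and a called difference of -1.57 (limma adjusted p = 0.000109) between DP and LL. ACLY, which cleaves citrate in the cytosol, was by contrast called higher in DP (1.06) and LG (1.03) than in LL, in LG not with quantile normalization (0.94). Malic enzyme genes ME3 (-2.03 in DP, -2.64 in LG) and ME1 (-1.58 in LG, or -0.93 and not called without scaling) were called lower than in LL, and the dicarboxylate carrier gene SLC25A10 was called higher in LG (1.28). ME1 had 0.38, 0.23 and 0.46 FPKM in LG and passed the filter of 0.5 FPKM through LL and DP alone.

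Carbon also enters and leaves the cycle through amino acids, propionate and phosphoenolpyruvate. Of 8 genes examined for these steps, of which GLUD1 was the most abundant, 7 were tested, and 0 were called higher and 2 lower in DP vs LL (1 and 1 without scaling), 0 and 1 in LG vs LL (5 and 1), and 2 and 0 in LG vs DP (also without scaling). GPT2, the mitochondrial alanine aminotransferase that forms pyruvate, was called lower in DP than in LL (-1.88, or -0.61 and not called without scaling) and higher in LG than in DP (1.99). PCK2, the mitochondrial phosphoenolpyruvate carboxykinase that draws on oxaloacetate, had scaled FPKM of 12.7, 18.7 and 17.8 for LL, 1.15, 1.95 and 1.63 for DP, and 0.768, 1.22 and 1.13 for LG, and was called lower than LL in both (-2.75 and -3.08), also without scaling (-1.60 and -2.12). PCCB, a subunit of propionyl-CoA carboxylase, which like PC binds biotin, was called higher in LG than in DP (1.84), and PCK1 did not pass the filter.

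General mitochondrial genes were looked at in the same way. Of 14 genes for matrix chaperones, proteases, import and the outer membrane, led in abundance by PHB2, 13 were below 0 in DP vs LL, 7 of them by adjusted p, with a median of -0.46, or 0.85 and 0 of 14 below 0 without scaling, -0.10 with quantile normalization and -0.042 when scaled by the sum, and 14 were above 0 in LG vs DP with a median of 0.66. Limma called 1 lower in DP vs LL (HSPA9, -1.04, or 0.30 without scaling, and called under no other scaling), 0 in LG vs LL, with 4 at an unadjusted p under 0.05, and 1 higher in LG vs DP (PHB, 1.51). Without scaling 4 were called higher in DP vs LL and 10 in LG vs LL, where 54.3% and 45.6% of all genes were. Among 9 regulators of mitochondrial genes 7 were tested, and 2 were called higher and 1 lower in DP vs LL (5 and 0 without scaling), 2 and 0 in LG vs LL (5 and 0), and 1 and 0 in LG vs DP (also without scaling). PPRC1 (1.30 in DP, 1.61 in LG) and NRF1 (1.35 and 1.07) were called higher than in LL, though in DP, and for NRF1 also in LG, not with quantile normalization. In LL PPRC1 had 0.24, 0.25 and 0.21 FPKM and NRF1 0.53, 0.17 and 0.27. Both thus passed the filter only with the DP and LG libraries. ESRRA, the most abundant, was called lower in DP (-1.63, or -0.25 and not called without scaling) and higher in LG than in DP (1.28), but its value is linked to that of its neighbour PRDX5.

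Markers of cell types moved with the same stages, and their part in the results on the 9 genes was not tested. The 5 milk protein genes, led by CSN2, had a summed scaled FPKM of 811900, 736900 and 501600 for LL, 89.4, 72.4 and 78.4 for DP, and 7228, 10070 and 8270 for LG, with 5 of 5 called lower in DP and LG than in LL and 5 of 5 called higher in LG than in DP. CSN1S1, CSN1S2 and CSN3 carry 1 shared value, at most 14.6 FPKM apart, which the sum counts 3 times, so these are not 5 separate genes. The 7 luminal epithelial genes summed to 1050, 1140 and 865 for LL, 297, 553 and 375 for DP, and 819, 782 and 927 for LG, lowest in DP as PDHA1, FH and MDH2 were. Most of this lay in ELF5, the most abundant (-4.19 in DP vs LL and 3.82 in LG vs DP), the 1 gene of the 7 that was called in either comparison, while limma called 0 in LG vs LL, with 0 at an unadjusted p under 0.05. In DP vs LL 5 of the 7 were below 0 and the keratins KRT8 (0.28) and KRT18 (0.60) above, while without scaling ELF5 alone was below 0 (-2.79) and 4 of the 7 were called higher. In LG vs LL all 7 were above 0 without scaling, and 4 were called higher.

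Sums of stromal and blood cell markers lay higher in every DP library than in any LL library, as did IDH3A, which was not called there. The 6 fibroblast genes, led by COL3A1, summed to 212, 226 and 324 scaled FPKM for LL, 503, 906 and 2392 for DP, and 521, 954 and 660 for LG, with 5 of 6 called higher in DP than in LL, 2 higher in LG than in LL, and 2 lower in LG than in DP. DP1 lay below all LG libraries in this sum. It was the lowest DP library for IDH3A and also for the sum, and DP3 the highest for both. The 8 leukocyte genes, led by CSF1R, summed to 39.1, 31.8 and 37.3 for LL, 112, 84.7 and 70.1 for DP, and 29.6, 33.6 and 24.3 for LG, with DP1 highest and DP3 lowest in DP, the reverse of IDH3A. Of the 6 tested, 3 were called higher in DP than in LL, 2 lower in LG than in LL, neither without scaling, and 4 lower in LG than in DP. The B cell marker MS4A1 had 7.68 FPKM in DP1, at most 0.16 in any other library and 0 in 1 library. CD79A of the same list had 3.28 FPKM in DP1 and at most 0.48 in any other library. Neither passed the filter.

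The other marker lists had at most 1 gene each called in any comparison on the scaled values. The 5 endothelial genes, led by PECAM1, summed to 102, 93.2 and 125 scaled FPKM for LL, 112, 112 and 160 for DP, and 58.1, 78.9 and 79.9 for LG, with 1 called, TEK, lower in LG than in DP (-1.19), and limma called 0 in DP vs LL and 0 in LG vs LL, with 1 and 3 at an unadjusted p under 0.05. Without scaling all 5 were called higher in DP vs LL, as were 54.3% of all genes, and PECAM1 has a value linked to that of its neighbour LOC102179516. The 6 myoepithelial genes, led by KRT5, summed to 189, 247 and 243 for LL, 139, 456 and 376 for DP, and 227, 274 and 307 for LG, and OXTR, at 0 in 1 library, was the 1 called, higher in LG than in LL (2.11) and DP (1.41), where without scaling 4 were called higher in DP vs LL. KRT5 and KRT14 in this list have values linked to those of neighbours. OXTR had 0.05, 0.17 and 0 FPKM in LL and passed the filter of 0.5 FPKM through DP and LG alone. The 6 adipocyte genes, led by LIPE, summed to 7.80, 7.61 and 10.3 for LL, 23.5, 3.65 and 4.13 for DP, and 2.90, 3.21 and 5.40 for LG, with DP1 apart from the rest. DP1 was also the highest library for IDH2 and the lowest DP library for PDHA1, CS, IDH3A and MDH2. Of these 6 genes 3 were tested, with 1 above 0 and 2 below in DP vs LL. LIPE was called lower in DP (-1.49) and LG (-1.14) than in LL. Neither call held without scaling (-0.47 and -0.25), and that in LG was lost with the sum (-0.93). ADIPOQ went the other way in DP vs LL (1.46, limma adjusted p = 0.0766) and was not called, though it was called higher without scaling (1.99). ADIPOQ had 0.23, 0.08 and 0.2 FPKM in LL and 0.2, 0.41 and 0.27 in LG. It thus passed the filter of 0.5 FPKM through DP alone. Its scaled FPKM were 12.64 in DP1 against 0.548 in DP2 and 1.195 in DP3. CIDEC stood at -0.21 in DP vs LL and was not called. LEP was at 0 in 5 libraries. The 5 skeletal muscle genes, led by TNNT3, summed to at most 1.195 scaled FPKM in any library, with CKM at 0 in 5 libraries and MB and MYLPF at 0 in 7 each. KRT17, FABP4, MYH1 and MYH2 were not analysed here.

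The genes whose course over the 9 libraries was most like the mean of the 9 genes were ranked by Pearson r among 11901 genes with at least 2 FPKM on average, as a description over 3 stages of 3 libraries. Genes with values linked to a neighbour were passed over when the first 5 were taken. Of these 5, NDUFAB1, the acyl carrier protein of complex I and of lipoic acid synthesis, came first at r = 0.993. It was followed by LOC102191741 (0.988), LOC102169976 (0.986), COPA, a coatomer subunit gene (0.982), and GCSH, the lipoyl-bearing H protein of glycine cleavage (0.979). Scaled FPKM of NDUFAB1 were 29.0, 29.6 and 22.0 for LL, 14.4, 15.6 and 16.6 for DP, and 26.6, 24.6 and 29.9 for LG. On this scale DP was lowest in every library, as it was for PDHA1, PDHB, FH and MDH2, while in FPKM as deposited LL was lowest (14.44, 16.38 and 13.32, against 21.95, 22.54 and 23.92 for DP), and the ranking by r used scaled values.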

How the data were processed

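RNA of mammary gland tissue from 9 goats was prepared with TRIzol and a TruSeq v2 kit and sequenced on an Illumina instrument. The submitters' processing notes name FastQC, Trimmomatic, HISAT2, SAMtools and HTSeq, and the study's methods name StringTie. The deposited values were taken as FPKM computed by the authors per gene. How transcripts were joined into genes is not given in the sources used here, and the table holds no read numbers. Of the gene identifiers 23465 had the same start and end in RefSeq ARS1.2. The 9 genes and the gene lists were chosen with earlier results of these data known. Values were divided by median-ratio factors (15905 genes above 0 in each library), 1 was added and log2 was taken. The fit of limma 3.58.1 (R 4.3.3) covered the 14701 genes that reached 0.5 FPKM in 3 or more libraries, used a mean-variance trend, and held the 9 libraries without covariates. Adjusted p-values come from limma with Benjamini-Hochberg adjustment, and the code was tested on simulated data. Figures were drawn with matplotlib 3.10.9 in Python 3.11.15. Neighbouring genes counted as linked where a straight line left residuals under 1% of the range, or where their difference varied by at most 0.55 FPKM with ranges of at least 5 FPKM. The genes named are the 9 genes, genes of the lists that were called, the most abundant gene of each list and the 5 genes without linked values most like the mean of the 9. Genes outside this rule were named after their values were seen. Alternatives covered scaling, pseudocount, filter, libraries in the fit, replicate block, trend, call rule, each library left out and, added after seeing the data, removal of linked genes. No promoter or protein sequence was used here.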

Additional observations from a re-analysis of the deposited data

How the results depend on the processing

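Scaling changed both counts and signs. Without scaling, 8348 genes (7979 higher, 369 lower) were called in DP vs LL and 7043 (6698, 345) in LG vs LL, against 3321 (2029, 1292) and 2544 (1572, 972), and LG vs DP split into 715 higher and 1577 lower, against 937 and 1011. Of the 9 genes 2 and 6 were called in the first 2 comparisons, with medians of 0.58 and 1.14. DP vs LL then gave CS 0.35, MDH2 0.58, FH 0.87, PDHB 0.65, PDHA1 0.49, OGDH 0.51 and PC 0.22. LG vs LL gave CS 1.00, PDHA1 1.05, OGDH 0.38 and IDH3A 0.75, and LG vs DP gave OGDH -0.12 and IDH2 -0.14. Median shifts of all genes were 1.09, 0.929 and -0.183. With quantile normalization 0 of the 9 genes were called in DP vs LL (limma, 4 by adjusted p alone), the median was -0.42, and CS (0.15) and PDHA1 (0.080) in LG vs LL and OGDH (-0.0042) in LG vs DP turned. Scaled by the sum without the 100 most abundant genes, all-gene medians shifted by 0.358, 0.222 and -0.132, splits were 3103 and 774, 1993 and 728, and 732 and 1356, the medians of the 9 genes were -0.34 and 0.26 against LL, and CS (0.11), PDHA1 (0.20) and IDH3A (0.022) in LG vs LL and OGDH (-0.071) and IDH2 (-0.090) in LG vs DP turned. Scaling itself sets these shifts.

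With a pseudocount of 0.1, 2 of the 9 genes and 4483 genes in all were called in DP vs LL, 3912 in LG vs LL, and MDH2 there was -4.9e-05. By adjusted p alone 8359, 7383 and 5112 genes and 8, 2 and 7 of the 9 were called. Without linked genes, added after seeing the data, 0 of the remaining 8 genes were called in DP vs LL and MDH2 in LG vs LL was -0.0079. The cause of these was not tested, beyond the smaller sets of genes or the looser rule.

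Leaving out each library in turn gave 0 to 1 of the 9 genes called in DP vs LL (0 without LL1 or LL2) and 1 to 3 in LG vs DP (1 without DP2 or LG1), with medians of -0.81 to -0.60, -0.11 to 0.084 and 0.65 to 0.81. Values near 0 changed sign, PDHA1 (-0.16 to 0.025) and MDH2 (-0.12 to 0.084) in LG vs LL and OGDH (-0.018 to 0.26) and IDH2 (-0.074 to 0.28) in LG vs DP. Replicate numbers are shared across stages without a stated pairing, and same-numbered libraries correlated at -0.12 to 0.237. Not every library correlated best with its own number. With a replicate block 3340, 2564 and 1986 genes and 1, 0 and 3 of the 9 were called. Without read numbers the counting error of PC, the lowest of the 9 by mean, cannot be given.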
